A study of Mus musculus with 46 samples.

Results

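The genes Zscan4c, Zscan4d, Zscan4f, Tcstv1, Tcstv3 and Zfp352 were followed through the reprogramming of mouse fibroblasts into induced pluripotent stem cells (iPSCs). They were taken by symbol, and all 6 were found among the 37108 genes of the time-course table and among the 35976 symbols of a transcript table summed by gene. Each row was used as deposited, and paralogues may share reads. The series measured mRNA in 46 libraries. In 31 of them, mouse embryonic fibroblasts (MEFs) had been infected with retroviruses for Oct4 and either native Nanog, labelled Nanog+Oct4, or Nanog carrying at its N-terminus the BRG1-interacting domain of SS18, labelled NanogN70+Oct4 and called the fusion here. BRG1 is the ATPase of the BAF chromatin remodelling complex, so the comparison asks what Nanog does differently when it is linked directly to that complex.

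The time course had 8 time points from day 0 (D0) to day 12 (D12), with 2 libraries per group and day, except 1 with the fusion at D8. D0 followed the infection, so no day is free of the factors. The medium was changed to one with 2 inhibitors and LIF at about D7, and native and fusion cells both received it. The MEFs carried an Oct4-GFP reporter and came from OG2 males crossed with 129 females. The remaining libraries were 6 iPSC samples made with the fusion, 6 made with native Nanog, 1 of the embryonic stem cell line OG2-mES (mES) and 2 of uninfected MEFs. The iPSC samples belong to lines iPSC1 and iPSC2, with 3 fusion samples in each, and with 4 native samples in the first and 2 in the second. The labels name samples as replicates or numbered clones and do not say whether they came from separate cultures or animals, so p-values measure the spread between these samples, which may be technical.

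In the mouse embryo the genome is switched on broadly at the 2-cell stage, and Zscan4, Tcstv and Zfp352 are among the genes that are transcribed then and silenced soon after. In embryonic stem cell cultures the same genes come on in a small, changing minority of cells, a state known as 2-cell-like, in which the homeobox protein Dux is a known activator. ZSCAN4 proteins have a SCAN domain and zinc fingers and are known for their part in telomere elongation and genome stability. Bulk RNA cannot tell more cells with a gene on from more RNA per cell.

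The members lie at 3 places in the genome, given here in RefSeq GRCm38.p6, a patch release of the mm10 build to which the reads were aligned. Zscan4c (chr7:11005745-11010547), Zscan4d (chr7:11161643-11166148) and Zscan4f (chr7:11397915-11402318) are protein-coding copies in one cluster that also holds Zscan4a, Zscan4b and pseudogenes. Tcstv1 (chr13:119893387-119894785) and Tcstv3 (chr13:120316862-120318261) belong to one family, and Zfp352 (chr4:90218820-90225687), which encodes a zinc finger protein, stands alone. The promoter set used here held no entry for Tcstv1 or Tcstv3. The 250 bases before the annotated start are therefore shown for the 3 Zscan4 copies and for Zfp352 only. They were read from RefSeq GRCm38.p6 5′ to 3′ on the gene's own strand: Zscan4c from chr7:11005495-11005744 (+), Zscan4d from chr7:11166149-11166398 (−), Zscan4f from chr7:11397665-11397914 (+) and Zfp352 from chr4:90218570-90218819 (+). Capitals mark TATAAA in the Zscan4 windows and the repeated 12-base unit AGGACAACACAC in the Zfp352 window.
Zscan4c: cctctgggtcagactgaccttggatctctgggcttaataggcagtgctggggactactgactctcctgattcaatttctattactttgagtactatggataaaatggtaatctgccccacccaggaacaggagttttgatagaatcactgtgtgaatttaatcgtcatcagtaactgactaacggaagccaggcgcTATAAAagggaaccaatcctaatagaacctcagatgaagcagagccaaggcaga
Zscan4d: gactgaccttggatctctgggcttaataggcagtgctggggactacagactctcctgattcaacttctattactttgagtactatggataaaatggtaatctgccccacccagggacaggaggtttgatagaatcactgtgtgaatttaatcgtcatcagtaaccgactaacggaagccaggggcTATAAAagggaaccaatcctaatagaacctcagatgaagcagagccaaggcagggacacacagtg
Zscan4f: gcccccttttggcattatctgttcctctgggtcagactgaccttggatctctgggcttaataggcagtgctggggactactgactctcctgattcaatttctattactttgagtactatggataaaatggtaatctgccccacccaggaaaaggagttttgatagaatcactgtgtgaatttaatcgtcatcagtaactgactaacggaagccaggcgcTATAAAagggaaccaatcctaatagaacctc
Zfp352: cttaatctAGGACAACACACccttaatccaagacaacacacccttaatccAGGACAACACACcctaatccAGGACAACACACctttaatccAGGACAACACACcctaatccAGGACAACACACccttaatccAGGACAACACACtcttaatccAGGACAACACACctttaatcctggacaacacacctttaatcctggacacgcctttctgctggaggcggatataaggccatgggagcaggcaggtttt

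The 3 Zscan4 windows are nearly the same sequence set at different distances from the annotated start. TATAAA lay 54 bases before the start of Zscan4c, 65 bases before that of Zscan4d and 31 bases before that of Zscan4f. Lined up on TATAAA without gaps, Zscan4c and Zscan4f had 226 of 227 bases in common (99.6%), Zscan4c and Zscan4d 232 of 239 (97.1%), and Zscan4d and Zscan4f 209 of 216 (96.8%). TATAAA, searched on both strands (TTTATA on the other), was in 3 of the 4 member windows and in 4063 of 32851 windows of the same length before all genes (12.4%). The octamer ATGCAAAT bound by OCT4, searched likewise with ATTTGCAT, was in 0 of the 4 and in 526 of the 32851 (1.6%). The Zfp352 window held 7 copies of AGGACAACACAC. Each match describes letters in a window and is no evidence of binding.

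Zscan4c and Zscan4f also share much of their transcript sequence and Zscan4d less, which bears on how far their values can be separated. Of the 150-base windows of the annotated Zscan4c transcripts, 61% (1298 of 2127) also occurred in another gene, against 77.4% (1448 of 1871) for Zscan4f and 13% (276 of 2123) for Zscan4d. Zscan4c and Zscan4f shared 954 windows, whereas Tcstv1, Tcstv3 and Zfp352 shared 0. Levels of Zscan4c and Zscan4f are therefore uncertain as to which copy the reads came from, and their sum with Zscan4d is given beside them. Values are FPKM (fragments per length of transcript, scaled to the library's total), a level per length, and 1 FPKM is a low level in bulk RNA. The relative depth recovered from the smallest steps between values was 0.813 to 1.10 in the fusion libraries of all days, 0.875 to 1.06 with native Nanog up to D7 and 1.86 to 3.19 with native Nanog from D8 on. From D8 on, depth and factor therefore cannot be told apart, and the deeper libraries, in which low levels are easier to see, are those with native Nanog.

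**Figure D1:**
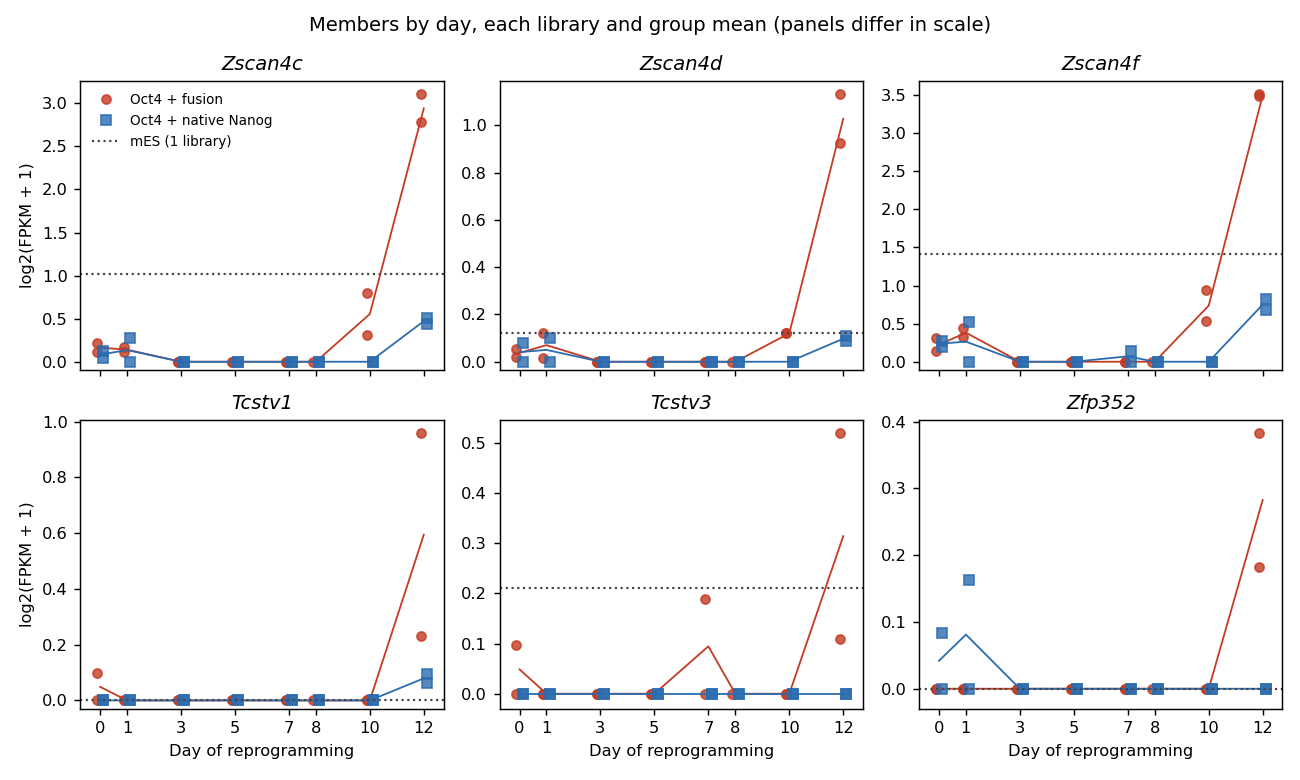
FPKM of each of the 6 genes as log2(FPKM + 1), on the vertical axis, against day, on the horizontal axis. Circles are the libraries with Oct4 and the fusion, squares those with Oct4 and native Nanog, lines join the group means, and the dotted line is the 1 mES library. Zscan4c, Zscan4d and Zscan4f are near 0 until D8 and highest at D12 with the fusion, where Zscan4c reaches 5.87 and 7.60 FPKM.

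All 6 genes were close to 0 for most of the time course and were highest with the fusion at D12. Among the 34 libraries of the gene table, Zscan4c was above 0 in 14, Zscan4d in 14, Zscan4f in 15, Tcstv1 in 5, Tcstv3 in 5 and Zfp352 in 4. In the 15 libraries of D3 to D8, Zscan4f was above 0 in 1 (0.104 FPKM, native Nanog at D7) and Tcstv3 in 1 (0.140 FPKM, the fusion at D7), while Zscan4c, Zscan4d, Tcstv1 and Zfp352 were listed at 0 in all 15. The Zscan4 genes thus had a trace at the start, a stretch at or near 0 and high values late.

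At D0 and D1 the Zscan4 genes were at trace levels with either form of Nanog. Zscan4c was at 0.162 and 0.0808 FPKM with the fusion at D0 and at 0.0890 and 0.0278 with native Nanog. At D1 it was at 0.0782 and 0.126 with the fusion and at 0.207 and 0 with native Nanog. The groups overlapped on D1, and Zscan4c was at 0 in both MEF libraries. Zscan4d at D0 was at 0.0395 and 0.0131 with the fusion and at 0.0578 and 0 with native Nanog. It was at 0 and 0.0548 in the MEF libraries, so its trace at D0 did not exceed the MEF values. Zscan4f at D0 was at 0.236 and 0.101 with the fusion and at 0.148 and 0.208 with native Nanog. Zfp352 was above 0 early in 2 libraries, the first native replicate of D0 at 0.0597 and of D1 at 0.119, and Tcstv1 was at 0.0700 and Tcstv3 at 0.0698 in the second fusion replicate of D0. In limma fits on log2(FPKM + 1) with 0.05 as the limit of the Benjamini-Hochberg adjusted p and 1 as that of the log2 difference, which together define a call here, 0 of the 2 members tested (Zscan4c and Zscan4f) were called at D0, D1, D3, D5 or D7. The share of all 16842 genes called was 0.76% at D0, 1.33% at D1, 3.7% at D3, 6.48% at D5 and 10.4% at D7. At D0 Zscan4c differed by 0.08 ± 0.14 and at D1 by 0.00 ± 0.14 (log2 difference, fusion minus native, ± SE, n = 2 and 2). Without the fold limit the count of members called at these 5 days was also 0.

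At D10 Zscan4 RNA was detected again in the fusion libraries and not in the native ones. The fusion library of D8 had all 6 genes at 0. At D10 Zscan4c was at 0.237 and 0.744 FPKM, Zscan4f at 0.442 and 0.926 and Zscan4d at 0.0865 and 0.0870 with the fusion. The 2 deeper native libraries of D10 had Zscan4c, Zscan4d and Zscan4f at 0. Tcstv1, Tcstv3 and Zfp352 were at 0 in all 4 libraries. The log2 difference was 0.55 ± 0.14 for Zscan4c (limma, Benjamini-Hochberg adjusted p = 0.00209) and 0.74 ± 0.15 for Zscan4f (adjusted p = 0.00029 by the same test). Both passed the p limit and stayed under the fold limit, so 0 of 2 members were called, against 27.8% of all genes. The log2(FPKM + 1) scale understates the change of genes as low as these. The sum of the 3 Zscan4 genes, 0.765 and 1.76 FPKM against 0 and 0, differed by 1.14 ± 0.20 (limma adjusted p = 6.67e-05) and passed both limits. That call rested on the second replicate, without which the sum differed by 0.82, Zscan4c by 0.31 and Zscan4f by 0.53. Without the first replicate the differences were 1.46, 0.80 and 0.95.

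By D12 Zscan4c and Zscan4f had risen to several FPKM with the fusion. Zscan4c was at 7.60 and 5.87 FPKM with the fusion and at 0.350 and 0.424 with native Nanog. Zscan4f was at 10.4 and 10.2 with the fusion and at 0.594 and 0.775 with native Nanog. Zscan4d, the copy known to predominate in 2-cell embryos, was at 1.19 and 0.899 against 0.0623 and 0.0775. Both fusion libraries stood far above both native libraries for each copy. The ratio of the mean levels was 17.4 for Zscan4c, 15.02 for Zscan4f, 14.9 for Zscan4d and 15.8 for their sum, which was 16.96 and 19.15 FPKM with the fusion and 1.01 and 1.28 with native Nanog.

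The other 3 members were low at D12, with their higher values in the fusion libraries. Tcstv1 was at 0.174 and 0.943 FPKM with the fusion and at 0.0443 and 0.0689 with native Nanog. Tcstv3 was at 0.434 and 0.0784 with the fusion and at 0 in both native libraries. Zfp352 was at 0.135 and 0.304 with the fusion and at 0 in both native libraries. These values rest on few fragments: in units of the smallest step between a gene's values, the fusion libraries held 2 and 12 for Tcstv1, 5 and 1 for Tcstv3 and 2 and 5 for Zfp352. For all 6 of 6 members both fusion libraries were above both native libraries, as they were for 37.5% of the 26600 genes with a value above 0 in any of the 4 libraries.

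In the test, 2 of the 2 members that passed the filter of 1 FPKM in 2 libraries were called higher at D12. The background was 23.4% of all genes called and 13.5% called higher. Zscan4c differed by 2.47 ± 0.14 (limma, Benjamini-Hochberg adjusted p = 5.72e-11) and Zscan4f by 2.75 ± 0.15 (adjusted p = 3.25e-11, same test). Both passed the filter only through the fusion libraries of D12, so a difference there was bound to be found, and their sizes rather than their count describe the members. With no filter, Zscan4d differed by 0.93 (limma adjusted p = 1.9e-10), Tcstv1 by 0.52 (0.00402), Tcstv3 by 0.31 (0.0053) and Zfp352 by 0.28 (0.000155), all under the fold limit. The median difference of all genes was 0.17, against 0.07 after quantile normalization of the libraries.

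**Figure D2:**
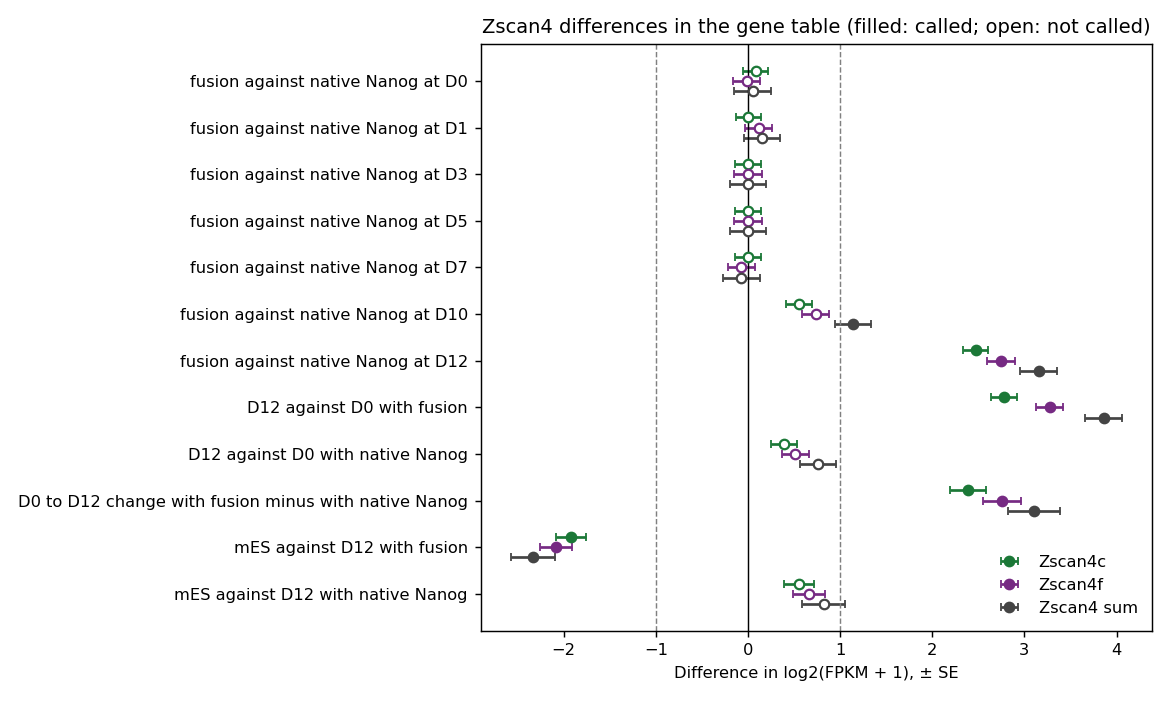
Log2 difference in FPKM + 1 (horizontal axis, with SE as bars) of Zscan4c, Zscan4f and the sum of the 3 Zscan4 genes in each comparison of the gene table (vertical axis), with dashed lines at the fold limit. Filled points passed an adjusted p of 0.05 and a log2 difference of 1, and open points did not. The difference between fusion and native Nanog is near 0 at D0 and 2.47 for Zscan4c at D12.

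Measured against their own start, Zscan4c and Zscan4f rose with the fusion and did not pass both limits with native Nanog. From D0 to D12 with the fusion the mean level of the Zscan4 sum went from 0.316 to 18.1 FPKM. The log2 difference was 2.78 ± 0.14 for Zscan4c and 3.27 ± 0.15 for Zscan4f, past both limits, with 34.7% of all genes called and 24.6% called higher. These calls, and those of the interaction, follow from the filter as at D12, since both genes entered the fit through the fusion libraries of D12, and the sizes are the description. With native Nanog the same difference was 0.39 ± 0.14 for Zscan4c (limma, Benjamini-Hochberg adjusted p = 0.0318) and 0.51 ± 0.15 for Zscan4f (adjusted p = 0.00934, same test), under the fold limit, so 0 of 2 were called, with 16.2% of all genes called and 12.2% called higher. The direction of Zscan4c with native Nanog was not stable, since quantile normalization turned 0.39 into −0.05. The change with the fusion minus that with native Nanog, tested as an interaction, was 2.39 ± 0.20 for Zscan4c (limma adjusted p = 3.16e-08) and 2.76 ± 0.21 for Zscan4f (adjusted p = 1.09e-08), with 23.9% of all genes called and 13.4% called higher.

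Zscan4 RNA in the D12 fusion cells was also above that of the established embryonic stem cells. The Zscan4 genes are known to be on in few cells of such cultures. The mES library had Zscan4c at 1.03 FPKM, Zscan4f at 1.66 and Zscan4d at 0.0884. Tcstv3 was at 0.157 there, between the 2 fusion libraries of D12 (0.434 and 0.0784), and Tcstv1 and Zfp352 were at 0. The fusion mean of D12 was 6.54-fold the mES level for Zscan4c, 6.21-fold for Zscan4f, 11.8-fold for Zscan4d and 6.51-fold for their sum. With 1 mES library, assumed to vary like the other groups, the log2 difference of mES from the fusion at D12 was −1.92 for Zscan4c (limma, Benjamini-Hochberg adjusted p = 1.46e-08) and −2.09 for Zscan4f (adjusted p = 1.2e-08). Both were called lower in mES, with 21.6% of all genes called. Both genes reached 1 FPKM only in the fusion libraries of D12 and in mES. These calls thus also reflect the filter, and the sizes are the description. Native Nanog cells of D12 lay below mES, at 0.411 of its Zscan4 sum. There the differences were 0.55 for Zscan4c and 0.66 for Zscan4f, and 0 of 2 were called, with 40.7% of all genes called. The order of the Zscan4 sum was thus fusion D12, mES, fusion D10 and native D12, where the last 2 overlapped (0.765 to 1.76 against 1.01 to 1.28 FPKM).

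Pluripotent cell markers were already abundant in fusion libraries in which the members were at 0. The sum of 13 such markers, which include Sox2, Esrrb and Dppa5a, was 5.17 to 10.4 FPKM at D0 and D1 with either factor, 589 with the fusion at D8, 886 to 1471 at D10 and 1433 to 2605 at D12, against 194 to 294 with native Nanog at D12 and 3915 in mES. At D8 all 13 were above 0 in the fusion library in which the 6 members were at 0. In mES the marker sum was above that of the D12 fusion cells while the Zscan4 sum was below it. Fibroblast markers (12 genes, such as Col1a1 and Thy1) summed to 314 to 458 FPKM with the fusion at D12, 3105 to 3592 with native Nanog at D12 and 12.6 in mES, so the compared cultures also differed in fibroblast RNA, whose part in the differences of the members was not tested. Trophoblast markers summed to 26.3 to 38.3 FPKM with the fusion at D12, 2.22 to 4.07 with native Nanog and 29.1 in mES. The trophoblast markers did not move as 1 set. Of 4 tested at D12, 2 were called higher with the fusion (Tfap2c, 3.43, and Krt7, 1.33), with 13.5% of all genes called higher. Eomes (0.55) and Cdx2 (−0.20) were not called. Primitive endoderm markers summed to 9.14 to 11.6 with the fusion at D12, 9.30 in both native libraries and 26.4 in mES.

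**Figure D3:**
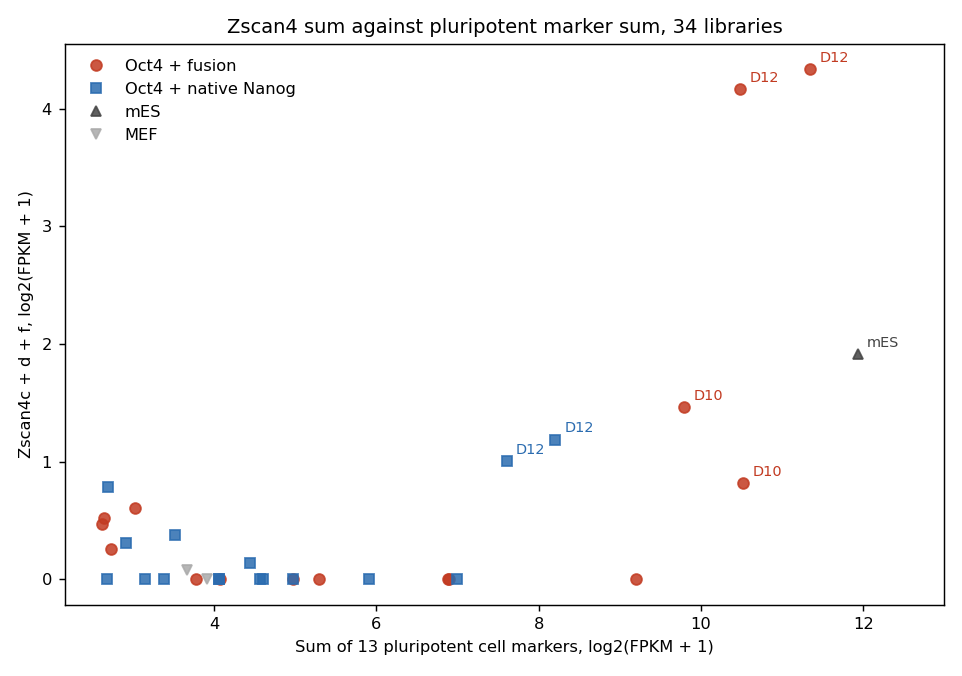
Sum of Zscan4c, Zscan4d and Zscan4f (vertical axis) against the sum of 13 pluripotent cell markers (horizontal axis), both as log2(FPKM + 1), for the 34 libraries of the gene table. Each point is a library, and D10, D12 and mES are named. Fusion libraries of D12 are at the top, with Zscan4 sums of 16.96 and 19.15 FPKM, and mES lies further right and lower, at 2.77 FPKM.

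Other 2-cell-stage genes were also higher with the fusion at D12. Of 43 further genes listed, 36 were in the gene table and 10 passed the filter, 8 of them through the fusion libraries of D12 alone, so that the counts also reflect the filter. At D12 all 10 were called higher with the fusion, with a median log2 difference of 1.64 against 0.17 for all genes. Of all genes, 13.5% were called higher. The largest differences were 2.79 for Gm6763, 2.62 for Gm4340, 1.96 for Zscan4a, 1.75 for Gm5662 and 1.72 for Zscan4b, where Zscan4a and Zscan4b belong to the same cluster as the members. Against mES, 10 of 10 were called lower in mES than in the fusion cells of D12, with 21.6% of all genes called in either direction. From D0 to D12 9 of 10 were called higher with the fusion (24.6% of all genes) and 0 of 10 with native Nanog (12.2%). At D10 0 of 10 were called between the factors, against 27.8% of all genes. Summed over the list, the fusion libraries of D12 held 55.5 and 58.3 FPKM, the native ones 3.25 and 5.74, and mES 6.37.

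The early trace was carried by other genes of that list as well. At D0 and D1 the list summed to 0.138 to 2.96 FPKM with the fusion and 1.62 to 6.04 with native Nanog, against 0.108 to 0.202 in the MEFs and at most 0.762 in the 15 libraries of D3 to D8. Gm6763 was at 1.06 and 0.605 FPKM with the fusion at D0 and at 2.00 and 0.468 with native Nanog. Gm4340 was at 0.636 and 0.731 against 2.201 and 0.252. The groups overlapped for Gm6763 and Gm4340, and replicates with native Nanog lay further apart than the groups did.

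Among known activators of the 2-cell programme, Dppa2 and Dppa4, a pair of SAP-domain proteins that act upstream of Dux, were already measured with the fusion at D7, when the Zscan4 genes were at 0. Mean Dppa2 with the fusion was 1.81 FPKM at D7, 9.83 at D10 and 20.3 at D12, against 0.821 at D10 and 2.91 at D12 with native Nanog and 29.8 in mES. Mean Dppa4 with the fusion was 0.699 FPKM at D7, 11.9 at D10 and 21.8 at D12, against 1.48 at D12 with native Nanog and 43.1 in mES. Dux was at 0.263 and 0.204 FPKM with the fusion at D12, at 0 and 0.0298 with native Nanog and at 0.0340 in mES, and it was at 0 in every other library of the gene table. Duxf3, a further gene of the Dux array, was at 0.152 and 0.103 with the fusion at D12, at 0 and 0.0150 with native Nanog, at 0.0172 in mES and at 0 in every other library of the gene table. Of 6 activators tested, 1 was called higher with the fusion at D7 (Dppa2, log2 difference 1.30), 6 at D10 and 5 at D12, where 5.79%, 15.4% and 13.5% of all genes were called higher. Those called at D12 were Dppa4 (3.20), Dppa2 (2.48), Tbx3 (1.53), Gata2 (1.37) and Nelfa (1.13), where Nelfa encodes a subunit of the negative elongation factor.

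Genes known to hold the 2-cell programme down were higher in the same libraries. Of 21 listed and tested, 8 were called higher with the fusion at D7, 13 at D10 and 13 at D12, against the same 5.79%, 15.4% and 13.5% of all genes, and 0 were called lower at those days. At D12 these included Zfp42 (2.89), Lin28a (2.41), Rif1 (1.78), Uhrf1 (1.76) and Chaf1b (1.71), the last a subunit of the chromatin assembly factor CAF-1. Zfp42, also known as Rex1, is in the list of pluripotent cell markers too. From D0 to D12, 17 of 21 were called higher with the fusion, against 24.6% of all genes, and 3 of 21 with native Nanog, against 12.2%. Members, activators and repressors thus all included genes called higher with the fusion at D12, and 0 genes of these lists were called lower.

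The genes closest in pattern to the Zscan4 sum over the 34 libraries were from the same set. By Pearson correlation of log2(FPKM + 1) among 17047 genes, the 5 nearest were Zscan4a (0.962), Gm13119 (0.958), Zscan4b (0.957), Gm5662 (0.956) and Gm2016 (0.955). Without the 2 fusion libraries of D12 the values were 0.863, 0.817, 0.796, 0.794 and 0.769. All 5 are in the list above, Zscan4a and Zscan4b share sequence with the members, and the libraries share days and factors, so the values describe likeness only.

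**Figure D4:**
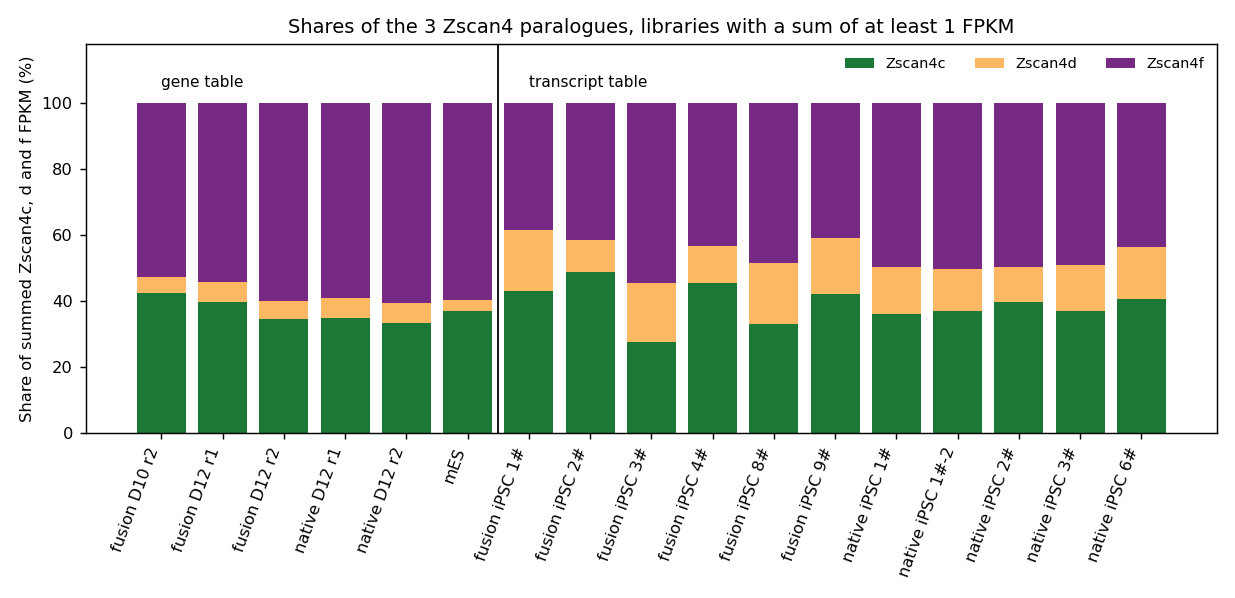
Stacked bars of the share of the Zscan4 sum held by Zscan4c, Zscan4d and Zscan4f (percent, vertical axis) in each library with a sum of at least 1 FPKM (horizontal axis). Bars left of the line come from the gene table and the iPSC bars from the transcript table. Zscan4d holds 5.30% and 6.21% in the fusion libraries of D12 and 9.73% to 18.5% in 11 iPSC libraries.

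Within the family, Zscan4d held the smallest part of the RNA in each library with a sum of at least 1 FPKM, and Zscan4f the largest in those of the gene table. In 4 of the 11 iPSC libraries Zscan4c held more than Zscan4f. In the fusion libraries of D12 Zscan4f made up 54.1% and 60.1% of the sum, Zscan4c 39.7% and 34.6% and Zscan4d 6.21% and 5.30%. In the mES library the shares of Zscan4f, Zscan4c and Zscan4d were 59.7%, 37.1% and 3.19% in the gene table and 52.5%, 34.7% and 12.8% in the transcript table, where its sum was 0.775 FPKM. In 11 iPSC libraries of the transcript table they were 38.5% to 54.7%, 27.5% to 48.7% and 9.73% to 18.5%. The Zscan4d share of mES thus lay within the iPSC range when both were read from the transcript table. Between the tables, the mES library had Zscan4c 3.82-fold, Zscan4f 4.07-fold and Zscan4d 0.894-fold as high in the gene table as in the transcript table. Levels are therefore not compared between the tables.

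In the transcript table each of the 6 genes was above 0 in at least 9 of the 12 iPSC samples, with overlapping values for the fusion and native Nanog. Zscan4c was at 1.09 (lowest), 2.09 (median) and 3.81 (highest) FPKM in the 6 fusion samples and at 0.0141, 2.37 and 3.22 in the 6 native ones. Zscan4f was at 1.06, 2.58 and 3.65 against 0.0799, 2.94 and 4.39. Zscan4d was at 0.443, 0.855 and 1.37 against 0, 0.853 and 1.21. The groups overlapped over nearly their whole range, and the lowest native value of each Zscan4 gene came from 1 sample, native clone 5# of the second line.

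The other members also overlapped between the groups. Tcstv1 was at 0, 0.748 and 1.70 FPKM (lowest, median, highest) with the fusion and at 0, 0.833 and 1.65 with native Nanog. Tcstv3 was at 0, 0.867 and 1.35 against 0, 0.838 and 1.46. Zfp352 was at 0.0447, 0.150 and 0.362 against 0.0902, 0.332 and 0.535. Tcstv1 was at 0 in native clones 5# and 6# and in fusion clone 9#, and Tcstv3 in native clone 5# and fusion clone 3#. In both MEF libraries the members were at 0 except Zscan4d, at 0.0138 in 1 of them.

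**Figure D5:**
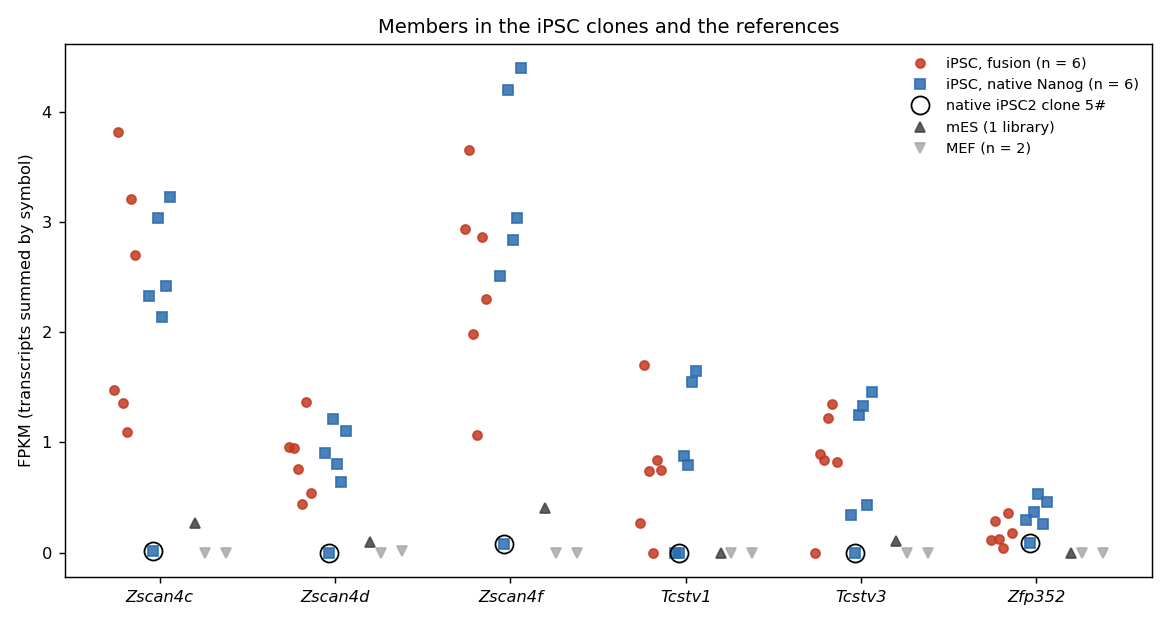
FPKM on a linear scale (vertical axis) of each of the 6 genes (horizontal axis) in the iPSC samples made with the fusion (circles, n = 6) and with native Nanog (squares, n = 6), in mES (1 library) and in MEF (n = 2). The iPSC groups overlap for each gene, and the ringed native clone 5# has Zscan4c at 0.0141 FPKM.

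With the line as a covariate, 0 of the 5 members tested were called between fusion and native Nanog (all but Zfp352), and 0% of all 12456 genes were called, although 201 genes had an unadjusted p under 0.05. The log2 difference was 0.15 ± 0.34 for Zscan4c, 0.10 ± 0.21 for Zscan4d, 0.04 ± 0.34 for Zscan4f, 0.06 ± 0.27 for Tcstv1 and 0.16 ± 0.23 for Tcstv3 (limma, Benjamini-Hochberg adjusted p = 0.999 for each). The errors leave room for differences of either sign. Without native clone 5# the difference was −0.24 for Zscan4c, −0.12 for Zscan4d, −0.38 for Zscan4f and −0.06 for Tcstv1. Between lines, the second minus the first, the differences were −0.35 for Zscan4c, −0.44 for Zscan4f, −0.57 for Tcstv1 (limma adjusted p = 0.222) and −0.54 for Tcstv3 (adjusted p = 0.177), 0 of 5 members were called, and 0.883% of all genes were. Without clone 5# they were 0.10 for Zscan4c and 0.04 for Zscan4f. The file headers give the lines different passages that do not overlap, and the effects of the line and of its passage cannot be told apart. Within line iPSC1 the native samples also differ in passage, and the fusion samples do not.

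Against the fibroblasts of origin, the iPSC samples had 2 of 5 members called higher, with 40.4% of all genes called and 21.7% called higher. The log2 difference was 1.51 ± 0.38 for Zscan4c (limma, Benjamini-Hochberg adjusted p = 0.00306) and 1.66 ± 0.35 for Zscan4f (adjusted p = 0.000962, n = 12 and 2 by limma). Zscan4d (0.77, adjusted p = 0.00866 by limma) and Tcstv3 (0.74, adjusted p = 0.028) passed the p limit alone, and Tcstv1 (0.64, adjusted p = 0.06) neither limit. Of 17 further 2-cell-stage genes tested, 9 were called higher, such as Gm5662 (1.89) and Gm4340 (1.65). The members and these genes passed the filter through iPSC samples alone. The calls thus also reflect the filter, and the sizes are the description.

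Against mES the Zscan4 genes were higher in most iPSC samples but were not called. The headers give mES a later passage than any iPSC sample, so cell type and passage cannot be told apart here. The mES library in this table had Zscan4c at 0.269 FPKM, Zscan4f at 0.407, Zscan4d at 0.0990 and Tcstv3 at 0.108, with Tcstv1 and Zfp352 at 0. The mean over 12 iPSC samples was 8.29-fold that level for Zscan4c, 6.52-fold for Zscan4f, 8.14-fold for Zscan4d and 7.65-fold for Tcstv3. The log2 difference was 1.16 ± 0.51 for Zscan4c (limma, Benjamini-Hochberg adjusted p = 0.177) and 1.17 ± 0.48 for Zscan4f (adjusted p = 0.148), with 1 mES library, so 0 of 5 were called, against 4.44% of all genes. This rested on 1 sample, since without native clone 5# both Zscan4c (1.38) and Zscan4f (1.38) were called. Those calls also reflect the filter, which both genes passed through iPSC samples alone.

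Native clone 5# stood apart in the 2-cell-stage genes, while its pluripotent marker sum, the lowest native one, lay nearer the native median. Its Zscan4 sum was 0.0940 FPKM, against a median of 5.94 and a highest value of 8.72 in the native group and 2.60, 5.45 and 8.41 (lowest, median, highest) in the fusion group. The other 2-cell-stage genes summed to 1.61 FPKM in it, against a native median of 40.2 and 13.1 to 48.4 with the fusion, and to 1.83 in mES. Its pluripotent markers summed to 3305 FPKM, the lowest of the native samples, whose median was 3788, and its fibroblast markers to 40.8, within the native range of 5.24 to 501. Its activators summed to 457 FPKM, also the lowest native value, of a range up to 561. Duxf3 was at 0 in this clone and in fusion clone 9# and at up to 0.123 FPKM in the other iPSC samples. Fusion clone 9# carried the most fibroblast RNA, with a marker sum of 1591 FPKM, and the lowest pluripotent sum, 2430, and its part in the fusion values was not tested beyond leaving it out, which changed no call of a member.

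The pattern of the Zscan4 sum across the 12 iPSC samples was nearest to that of Gm5662 (Pearson correlation 0.952), Rprd1a (0.932), Smim8 (0.928), Dhrs4 (0.927) and Gm21312 (0.921) among 12451 genes. Without clone 5# the values were 0.853, 0.685, 0.729, 0.646 and 0.928. Gm5662 was among the 5 nearest in both tables.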

How the data were processed

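Libraries were made by the authors from mRNA and read in pairs. Per the authors' methods and processing notes, reads were trimmed with Trim Galore 0.6.4, aligned to mm10 with HISAT2 2.2.1 and quantified with StringTie 2.2.1. The release of the gene annotation and the strand setting are not given in the sources used here. The deposited transcript identifiers have the form of RefSeq, and 45525 of 106520 (42.7%) matched RefSeq GRCm38.p6 with the same version. The authors deposited FPKM values in a gene table (34 libraries) and a transcript table (15 libraries: 12 iPSC, mES and MEF), which was summed by symbol here. Raw counts were not used here. Total FPKM per library was 370030 to 462190 in the time course and 396871 to 435908 in the iPSC samples. For 1987 genes the values were multiples of a smallest step (96.2% to 98.8% within 0.1 of a step), which gave the relative depth of the gene table. Absolute depth is unknown.

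FPKM were tested as log2(FPKM + 1) with limma 3.58.1 in R 4.3.3. Genes needed at least 1 FPKM in at least 2 samples. The time course was fitted with 31 libraries, the fits against mES with 34, and the iPSC fits with 12 (line as covariate) and 15. P-values were adjusted over all genes by Benjamini-Hochberg. Calls were made where the adjusted p was below 0.05 and the absolute log2 difference reached 1. Methods were tested on simulated data. Alternatives were pseudocount 0.1, no filter, TPM, quantile normalization, no fold limit, the compared groups alone, the replicate number as a block, each replicate left out, the iPSC samples 1# and 1#-2 as their mean, no covariate, and the Zscan4 genes as a sum. These 2 samples share a clone number and differ in passage by the headers. They had a Pearson correlation of 0.990, within the 0.975 to 0.993 of the 15 pairs of native iPSC samples, and were kept apart. Shared transcript windows were counted in GENCODE M21 transcripts, and promoters came from RefSeq. The window counts may therefore differ from those in the annotation the authors used.

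The members and gene lists were chosen with earlier results of these data known. Named genes were the members, of each further list at most the 5 called genes with the largest difference in a comparison, called activators and repressors, and the 5 genes nearest in pattern. Dux and Duxf3, the D0 values of Gm6763 and Gm4340, and the D12 differences of Eomes and Cdx2 were named after their values were seen.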

Additional observations from a re-analysis of the deposited data

Results flagged for a closer look

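In groups of 6 iPSC samples, 14 combinations of gene and group were examined for a lowest or highest sample far from the rest, of which chance would mark about 1 in 20, and 4 were marked. The gap of the farthest sample to its nearest neighbour, as a share of the group's whole range, was compared with 0.625, the critical value of Dixon's test for 6 samples. Native clone 5# was the lowest of its group for Zscan4c (0.792), Zscan4f (0.732) and the Zscan4 sum (0.832), which share reads and are not independent. Fusion clone 3# was the lowest of its group for Tcstv3 (0.705), at 0 FPKM.

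The change from D0 to D12 differed between the fusion and native Nanog by 2.39 for Zscan4c, 2.76 for Zscan4f and 3.10 for the Zscan4 sum (log2, interaction by limma). Each was past both limits in that test, in which 23.9% of all genes were called. For Zscan4c and Zscan4f the call follows from the filter, so the sizes are the description.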

How the results depend on the processing

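At D12 the count of members called between the fusion and native Nanog was 2 under every alternative that gave a value except TPM, where it was 3 with Zscan4d added. With the replicate number as a replicate block the counts of members called were 2 at D12, 2 from D0 to D12 with the fusion and 2 for the interaction, and no other count changed. Replicate numbers are only shared: the correlations of deviations between same-numbered samples ran from −0.0647 at D3 to 0.395 at D7, so no pairing was assumed. Leaving out a replicate could not give a value for fusion against native Nanog at D12, for D0 to D12 with the fusion or for the interaction, because the members then failed the filter. Against mES, whose library also entered the filter, 2 members stayed called (Zscan4c −2.08 to −1.76). With genes filtered on all samples, an alternative chosen after seeing the data, 2 members stayed called at D12 (Zscan4c 2.27 to 2.67, Zscan4f 2.66 to 2.83). A fit of the compared groups alone gave a value at D12 only.

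The count of members called at D10 moved from 0 to 2 with no fold limit, with pseudocount 0.1 and with TPM. From D0 to D12 with native Nanog it moved from 0 to 2 with no fold limit and with pseudocount 0.1. Between mES and native Nanog at D12 it moved from 0 to 2 with no fold limit and to 1 (Zscan4f) with quantile normalization. Between iPSC and MEF it moved from 2 to 4 with no fold limit, to 5 with pseudocount 0.1 and to 5 with TPM. Between iPSC and mES it ran from 0 to 2 when samples were left out, with 2 reached without native clone 5#. The cause was not tested.

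Signs turned as follows. With quantile normalization Zscan4c from D0 to D12 with native Nanog was −0.049 (0.39 before) and Zscan4d between lines 0.027. With no covariate, fusion minus native iPSC was −0.039 for Tcstv1 and −0.032 for Zscan4f. With samples left out, fusion minus native at D0 ran from −0.13 to 0.11 for Zscan4f and −0.049 to 0.15 for the sum. At D1 it ran from −0.16 to 0.17 for Zscan4c, −0.087 to 0.32 for Zscan4f and −0.18 to 0.47 for the sum. In iPSC samples it ran from −0.060 to 0.32 for Tcstv1, −0.24 to 0.35 for Zscan4c, −0.12 to 0.20 for Zscan4d, −0.38 to 0.28 for Zscan4f and −0.36 to 0.53 for the sum. Line 2 minus line 1 ran from −0.53 to 0.10 for Zscan4c, −0.24 to 0.11 for Zscan4d, −0.65 to 0.043 for Zscan4f and −0.82 to 0.13 for the sum. None of these was past both limits before. The Zscan4 sum was called in 6 of 16 comparisons.

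There were 2 libraries per group and 1 mES library, and Zscan4d, Tcstv1, Tcstv3 and Zfp352 had levels near or under 1 FPKM. The values of Tcstv1, Tcstv3 and Zfp352 rest on few fragments. Zscan4d held 73 and 61 of its smallest steps in the fusion libraries of D12 and 15 and 12 in the native ones. These 4 genes were tested in the time course only without the filter (Zscan4d also with TPM).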
